A study of Mus musculus with 4 samples.

Results

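The Zfp-named zinc finger genes are mouse genes whose symbol is Zfp followed by digits and, in some cases, a letter. They were described in murine embryonic stem cells (CM7/1) that overexpress Hey1 or Hey2 under doxycycline. The array named 327 such genes, with Zfp42 and Zfp352 left out, among 18194 genes with a probe set of their own. The genes were chosen by symbol and by level: where several probe sets read a gene the one of highest mean was kept, and its top value had to reach 6.05 on the log2 scale, the median of all values. The family itself was selected on differences between induced and uninduced arrays seen earlier in these data. This left 280 Zfp genes among 12098 genes compared, or 85.6% of the Zfp genes and 66.5% of all genes. The 4 groups, with 1 array each, were Hey1 cells given 1000 ng/ml doxycycline for 48 h, Hey1 cells without induction, Hey2 cells given the same doxycycline treatment, and Hey2 cells without induction. The labels name a Hey factor for overexpression on all 4 arrays and call the uninduced ones controls, and no array of cells without such a label was used here. Doxycycline was given only to the induced cells, so the agent and the factor cannot be told apart. The sources used here do not say whether each line is a single clone.

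Most Zfp genes encode proteins with C2H2 zinc fingers, each of which can contact a few bases of DNA, and many also carry a KRAB domain. The KRAB domain recruits the corepressor Trim28, which brings in the histone methyltransferase Setdb1. In embryonic stem cells this machinery silences retroelements and protects imprinted loci. Genes of the KRAB type multiplied by local duplication and lie in clusters on a few mouse chromosomes. Hey1 and Hey2 are basic helix-loop-helix repressors downstream of Notch receptors.

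Every difference is the log2 value of the array labelled induced minus that of the uninduced array of the same line. These differences were part of the choice of the genes, so they are given as description, and 1 array per group allows no test. The number of arrays limits the precision. In bulk cells, fewer cells of a type and less RNA per cell cannot be told apart. The labelled induction was not seen at the probe sets named for Hey1 and Hey2. Detection of RNA from the added gene copies at these positions was not tested, so induction cannot be judged from them. Hey1 read 6.51 in induced and 6.73 in uninduced Hey1 cells, and Hey2 read 4.34 in induced and 4.25 in uninduced Hey2 cells, below the filter. The 7 embryonic stem cell markers checked, among them Pou5f1, Sox2 and Nanog, read between 10.9 and 15.0 on all arrays. The endoderm genes Gata4, Gata6 and Foxa2 and the fibroblast genes Col1a1, Dcn and Postn lay below the filter on all 4 arrays. The fourth endoderm marker, Sox17, passed it, at 6.19 and 6.21 in induced and uninduced Hey1 cells and 6.01 and 6.23 in induced and uninduced Hey2 cells. Of the 4 neural markers all passed it, as did 2 of the 5 fibroblast markers, Col1a2 and Thy1, and 3 of the 4 measured mesoderm and cardiac markers, Mesp1, Nkx2-5 and Myh6. The cardiac myosin gene Myh6 read 6.48 in induced and 5.60 in uninduced Hey2 cells, a difference of 0.88, and 6.53 in induced and 6.07 in uninduced Hey1 cells. The cardiac factor gene Nkx2-5 read 5.75 in induced and 6.50 in uninduced Hey2 cells, a difference of -0.75, and 5.71 in induced and 6.23 in uninduced Hey1 cells. These 2 genes thus differed in opposite directions. The neuronal gene Tubb3 read 9.28 and 9.33 in induced and uninduced Hey1 cells, against 9.11 and 9.16 in induced and uninduced Hey2 cells. Thy1, from the fibroblast list, read 7.80 and 7.13 in induced and uninduced Hey1 cells, against 5.73 and 5.51 in induced and uninduced Hey2 cells. The neural gene Sox1 read 7.35 and 8.14 in induced and uninduced Hey1 cells, against 5.98 and 7.05 in induced and uninduced Hey2 cells. The part of such cells in the Zfp differences was not tested.

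Across the 280 Zfp genes the induced arrays were slightly higher, more in the Hey2 line than in the Hey1 line. In the Hey1 line the median difference was 0.020, against -0.012 over all genes compared, and 154 of 280 Zfp genes (55.0%) lay above 0, where 46.8% of all genes did. In the Hey2 line the median was 0.079, against -0.022 over all genes, and 176 Zfp genes (62.9%) lay above 0, where 45.6% of all genes did. Genes whose mean level fell within the Zfp genes' quartiles, 4362 in number, had medians of -0.011 for the Hey1 line and -0.019 for the Hey2 line. Larger than either was the median between the lines without induction: uninduced Hey2 cells minus uninduced Hey1 cells gave a median of -0.16 over the Zfp genes and 0.027 over all genes.

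Large differences were few. In the Hey1 line no Zfp gene was at least 2-fold higher or lower, where 0.438% of all genes compared were higher and 0.0331% lower. At 1.5-fold, 9 Zfp genes (3.21%) were higher in the induced array, where 1.84% of all genes were, and 1 (0.357%) was lower, where 0.587% were. In the Hey2 line 6 Zfp genes (2.14%) were at least 2-fold higher, against 0.686% of all genes, and 0 were at least 2-fold lower, against 0.24%. At 1.5-fold the Hey2 line had 32 higher Zfp genes (11.4%), against 3.02% of all genes, and 3 lower ones (1.07%), against 2.46%. The comparison was chosen with these values known, so nothing is read from the shares.

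**Figure D1:**
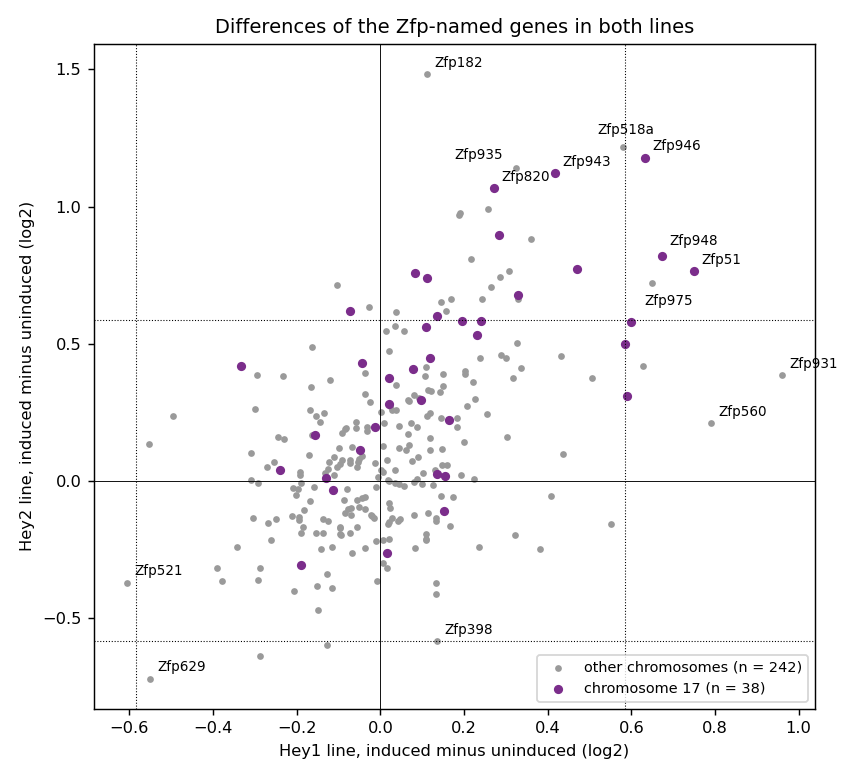
Log2 difference of induced minus uninduced array in the Hey1 line (horizontal) and the Hey2 line (vertical) for the 280 Zfp genes compared, with those of chromosome 17 in purple. Dotted lines mark 1.5-fold; Zfp51, Zfp946, Zfp948 and Zfp975 lie past it on the higher side in both lines.

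Zfp51, Zfp948, Zfp946 and Zfp975 were at least 1.5-fold higher in the induced arrays of both lines (1.43% of the Zfp genes, against 0.769% of all genes). No Zfp gene was at least 1.5-fold lower in both (0.223% of all genes). Zfp51 read 8.27 in induced and 7.52 in uninduced Hey1 cells, and 7.63 in induced and 6.86 in uninduced Hey2 cells, differences of 0.75 and 0.76. Zfp948 read 9.11 and 8.44 in induced and uninduced Hey1 cells, and 8.64 and 7.82 in induced and uninduced Hey2 cells, differences of 0.67 and 0.82. Both genes were lowest in uninduced Hey2 cells and highest in induced Hey1 cells. Zfp946 read 7.21 and 6.58 in induced and uninduced Hey1 cells, and 6.66 and 5.49 in induced and uninduced Hey2 cells, differences of 0.63 and 1.18. Its value in uninduced Hey2 cells lay below the filter. Zfp975 read 8.49 and 7.84 in induced and uninduced Hey1 cells, and 8.52 and 7.80 in induced and uninduced Hey2 cells, differences of 0.65 and 0.72. Unlike the other 3, Zfp975 read nearly the same in both uninduced arrays. Its probe set is of a type that can read related transcripts, and its other probe set gave 0.22 and 0.58.

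Zfp51, Zfp948 and Zfp946 lie on chromosome 17 in the gene table, and Zfp959 and Zfp119a, from another stretch of that chromosome, lay near the 1.5-fold line in both lines. Zfp959 read 7.30 and 6.70 in induced and uninduced Hey1 cells, and 6.69 and 6.11 in induced and uninduced Hey2 cells, differences of 0.60 and 0.58. Zfp119a read 6.88 and 6.30 in induced and uninduced Hey1 cells, and 6.34 and 5.84 in induced and uninduced Hey2 cells, differences of 0.58 and 0.50. Both induced arrays were above the uninduced array of their own line. For both genes the induced Hey2 array lay close to the uninduced Hey1 array.

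The 250 bases before the start site of Zfp946, Zfp820, Zfp948, Zfp119a and Zfp959 follow, because Zfp946, Zfp820, Zfp948 and Zfp959 are among the larger differences in at least 1 line and Zfp119a, chosen after its values were seen, is the close relative of Zfp959 in this stretch. They come from RefSeq, mouse build GRCm38.p6, and are written 5′ to 3′ on the strand of the gene, with CACGTG in capitals where it occurs. CACGTG is an E-box that Hey proteins bind in other systems. The stretches are chr17:22423952-22424201 on the plus strand for Zfp946, chr17:21845760-21846009 on the minus strand for Zfp820, chr17:21566728-21566977 on the plus strand for Zfp948, chr17:55878954-55879203 on the minus strand for Zfp119a and chr17:55891843-55892092 on the plus strand for Zfp959.
Zfp946: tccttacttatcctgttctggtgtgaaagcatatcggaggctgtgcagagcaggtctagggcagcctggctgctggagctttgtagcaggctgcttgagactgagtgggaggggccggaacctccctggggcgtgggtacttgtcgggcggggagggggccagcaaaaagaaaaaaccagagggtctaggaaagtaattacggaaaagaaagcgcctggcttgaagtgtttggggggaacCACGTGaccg
Zfp820: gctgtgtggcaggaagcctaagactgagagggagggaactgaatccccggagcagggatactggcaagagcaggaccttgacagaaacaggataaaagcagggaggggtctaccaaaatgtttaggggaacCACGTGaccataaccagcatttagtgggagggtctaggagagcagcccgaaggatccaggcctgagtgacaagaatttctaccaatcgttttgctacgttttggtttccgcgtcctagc
Zfp948: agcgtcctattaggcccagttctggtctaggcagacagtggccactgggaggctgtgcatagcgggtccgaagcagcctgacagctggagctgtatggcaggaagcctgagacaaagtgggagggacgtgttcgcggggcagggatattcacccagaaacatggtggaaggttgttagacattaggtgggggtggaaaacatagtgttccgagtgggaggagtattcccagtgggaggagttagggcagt
Zfp119a: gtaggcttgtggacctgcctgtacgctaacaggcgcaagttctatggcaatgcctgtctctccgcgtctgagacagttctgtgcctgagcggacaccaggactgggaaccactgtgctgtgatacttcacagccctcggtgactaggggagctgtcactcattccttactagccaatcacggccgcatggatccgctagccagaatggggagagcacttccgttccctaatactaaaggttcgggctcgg
Zfp959: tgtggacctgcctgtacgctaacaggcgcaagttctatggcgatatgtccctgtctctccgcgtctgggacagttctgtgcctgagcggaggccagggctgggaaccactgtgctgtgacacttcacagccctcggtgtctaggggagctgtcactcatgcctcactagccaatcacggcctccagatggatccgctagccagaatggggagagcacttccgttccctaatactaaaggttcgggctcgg

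The upstream stretches of Zfp119a and Zfp959 were 91.1% identical in a global alignment, where the median pair of chromosome 17 Zfp genes, over 630 pairs of 36 genes, was 49.3% identical. The ones of Zfp943 and Zfp758 were 93.8% identical and those of Zfp942 and Zfp944 81.5%. Zfp955a and Zfp955b had the same 250 bases. Whether a probe set of one duplicated gene also reads its copy was not tested.

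CACGTG was found in 15 of the 232 Zfp genes compared that have an upstream window in the table (6.47%), against 6.86% of 27025 genes with a window and 6.02% of 32851 windows. CACGTG reads the same on both strands. On chromosome 17, 7 of 36 Zfp genes with a window (19.4%) held it, in 5 separate places, since Zfp942 and Zfp943 share a stretch read from opposite strands and so do Zfp944 and Zfp758. The related motif CACGCG, or CGCGTG on the other strand, was in 24 of 232 Zfp genes (10.3%), against 8.65% of genes with a window, and in 0 of the 36 on chromosome 17. The stretches around CACGTG on chromosome 17 are given with their own strand, for comparison of the flanks, as up to 12 bases on each side. Coordinates are chr17:21845861-21845890 for Zfp820, chr17:21962501-21962530 for Zfp942 and Zfp943, chr17:22361412-22361441 for Zfp944 and Zfp758, chr17:22424180-22424201 for Zfp946 and chr17:32788359-32788388 for Zfp871. Zfp820, Zfp942, Zfp944 and Zfp871 are on the minus strand and the others on the plus strand.
Zfp820: gtttaggggaacCACGTGaccataaccagc
Zfp946: tttggggggaacCACGTGaccg
Zfp942: cgttagcgctgtCACGTGaccggaaccgtg
Zfp943: cacggttccggtCACGTGacagcgctaacg
Zfp944: cgttagcgctgtCACGTGaccggaaccgtg
Zfp758: cacggttccggtCACGTGacagcgctaacg
Zfp871: ttgggaggcgtgCACGTGactcactggcca

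Zfp820 and Zfp946 share ggggaacCACGTGacc, the longest run common to both stretches. The stretches of Zfp943 and Zfp758 were the same. The motif began 119 bases before the start of Zfp820, 54 before Zfp942, 46 before Zfp943, 29 before Zfp944, 39 before Zfp758, 10 before Zfp946 and 89 before Zfp871. Over the 15 Zfp genes with the motif the medians of the Hey1 and Hey2 differences were 0.14 and 0.39; over the 217 without it, 0.020 and 0.080. The chromosome 17 genes make up 7 of the 15, among them Zfp820, Zfp943 and Zfp946. No median was taken over the motif genes of other chromosomes alone. Motif and chromosome thus cannot be told apart in these medians. Over the 24 genes with CACGCG or CGCGTG the medians were -0.074 and -0.046, and over the 208 with a window and neither, 0.037 and 0.11. The 24 include 0 of the 36 chromosome 17 genes with a window. All Zfp genes off chromosome 17 had medians of 0.0061 and 0.059. A match of letters is a description and no site of binding.

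The 6 Zfp genes at least 2-fold higher in the induced Hey2 array were Zfp182, Zfp518a, Zfp946, Zfp935, Zfp943 and Zfp820. Zfp182 read 6.76 in induced and 5.27 in uninduced Hey2 cells, against 6.83 and 6.72 in induced and uninduced Hey1 cells, a 2.79-fold difference for the Hey2 line and 0.11 on the log2 scale for the Hey1 line. Its other probe set gave 0.21 in the Hey2 line. Zfp182 was low, and below the filter, in uninduced Hey2 cells alone, and 3 of its values fell close together. Zfp518a read 10.08 in induced and 8.86 in uninduced Hey2 cells, against 10.39 and 9.81 in induced and uninduced Hey1 cells, differences of 1.22 and 0.58. Its relative Zfp518b, whose human counterpart binds the histone methyltransferase G9a, had 0.56 for the Hey2 line and 0.03 for the Hey1 line. Zfp943 read 7.19 in induced and 6.06 in uninduced Hey2 cells, against 7.22 and 6.80 in induced and uninduced Hey1 cells, differences of 1.12 and 0.42. Zfp820 read 7.42 in induced and 6.35 in uninduced Hey2 cells, against 7.70 and 7.43 in induced and uninduced Hey1 cells, differences of 1.07 and 0.27. Its other probe set gave 1.31 and 0.73. Zfp935 read 6.02 in induced and 4.88 in uninduced Hey2 cells, against 6.13 and 5.81 in induced and uninduced Hey1 cells, and only induced Hey1 cells reached the filter. The probe set of Zfp935, like that of Zfp975, is of a type that can read related transcripts.

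Other Zfp genes with a difference of about 1 in the Hey2 line include Zfp516, an activator of the brown fat gene programme, and Zfp638, which silences unintegrated retroviral DNA. Zfp516 read 8.99 in induced and 7.996 in uninduced Hey2 cells, and 8.56 and 8.30 in induced and uninduced Hey1 cells, differences of 0.99 and 0.26. Zfp638 read 10.41 in induced and 9.44 in uninduced Hey2 cells, and 10.47 and 10.27 in induced and uninduced Hey1 cells, differences of 0.98 and 0.19. Both had another probe set that went the same way in the Hey2 line, at 0.72 for Zfp516 and 1.45 for Zfp638. Of the 35 Zfp genes past 1.5-fold in the Hey2 line, 13 had another probe set over the filter, 16 probe sets in all. All 16 had the same sign and 10 were past 1.5-fold. In the Hey1 line only 1 of 10, Zfp975, had another probe set over the filter. The other probe sets were read on the same arrays, for genes picked by their values there, so nothing is read from their sign.

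**Figure D2:**
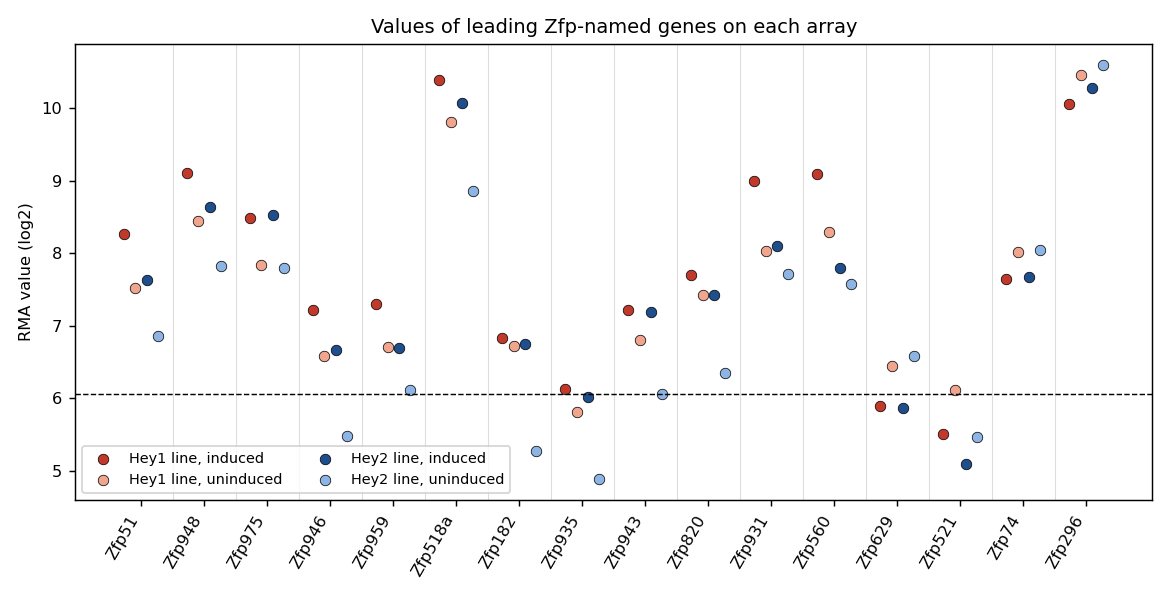
Log2 probe set value (RMA) of the leading Zfp genes on each of the 4 arrays, 1 point per array, induced beside uninduced in each line, with the filter as a dashed line. Zfp182 reads 5.27 in the uninduced Hey2 array and between 6.72 and 6.83 in the others.

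In the Hey1 line the largest difference was that of Zfp931, which read 8.99 in induced and 8.03 in uninduced Hey1 cells, a difference of 0.96. It was 8.10 in induced and 7.71 in uninduced Hey2 cells. The probe set of Zfp931, like that of Zfp975, is of a type that can read related transcripts. Zfp560 read 9.09 in induced and 8.30 in uninduced Hey1 cells, a difference of 0.79, and 7.79 and 7.58 in induced and uninduced Hey2 cells. Zfp869 read 6.97 in induced and 6.34 in uninduced Hey1 cells, and 7.41 and 6.99 in induced and uninduced Hey2 cells. Zfp560 was high in induced Hey1 cells and low in both Hey2 arrays, whereas Zfp869 was higher in uninduced Hey2 than in uninduced Hey1 cells. The order of the arrays thus differed from gene to gene.

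The lower side was thin. Zfp629 had the largest lower difference shared by the lines, with -0.55 for the Hey1 line and -0.72 for the Hey2 line. It read 5.89 in induced and 6.44 in uninduced Hey1 cells, and 5.86 in induced and 6.58 in uninduced Hey2 cells. Only its uninduced values reached the filter. Zfp521, which drives neural differentiation of embryonic stem cells, read 5.51 in induced and 6.11 in uninduced Hey1 cells, and 5.09 in induced and 5.46 in uninduced Hey2 cells, differences of -0.61 and -0.37. It was over the filter only in uninduced Hey1 cells. Zfp703, a corepressor that acts with Groucho proteins, read 6.69 in induced and 7.29 in uninduced Hey2 cells, a difference of -0.60, and Zfp651 had -0.64 with -0.14 at its other probe set. Zfp296, a factor of embryonic stem cells that aids reprogramming, had -0.39 for the Hey1 line and -0.32 for the Hey2 line. Zfp180 went opposite ways, with 0.55 for the Hey1 line and -0.16 for the Hey2 line, and Zfp398 with 0.14 and -0.58.

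The lines share no array, and 115 Zfp genes (41.1%) lay above 0 in both lines and 65 (23.2%) below 0 in both, where 28.1% and 35.5% of all genes did. Across the 280 Zfp genes, which are not independent and share the arrays, the 2 differences had a Pearson r of 0.52 and a Spearman rho of 0.48. Over all genes compared r was 0.41 and rho 0.37. Both are descriptions.

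Many Zfp genes had their lowest value in uninduced Hey2 cells. The comparison of uninduced Hey2 with uninduced Hey1 cells shares the uninduced Hey2 array with the Hey2 difference, so the values are set side by side only. Between the uninduced arrays 49 Zfp genes (17.5%) were at least 1.5-fold lower in Hey2 cells, where 4.42% of all genes were, and 7 (2.5%) were higher, where 4.5% were. At 2-fold 5 were lower (1.79%, against 1.13% of all genes), Zfp182, Zfp946, Zfp820, Zfp472 and Zfp54, and 0 were higher (against 0.827%). Of the 4 values, the uninduced Hey2 array held the lowest for 144 of 280 Zfp genes (51.4%), where it did for 26.7% of all genes. The median over Zfp genes was 8.03 in induced Hey1 cells, 8.003 in uninduced Hey1 cells, 7.93 in induced Hey2 cells and 7.85 in uninduced Hey2 cells, while the median over all genes lay between 8.71 and 8.73. Set against the uninduced array of the other line, the median difference of the Zfp genes in induced Hey2 cells turned to -0.035, and in induced Hey1 cells it was 0.19. Of the 32 Zfp genes at least 1.5-fold higher in the Hey2 line, 2, Zfp516 and Zfp975, were at least that much higher in induced Hey2 than in uninduced Hey1 cells, and the median of the 32 was 0.080. In the Hey1 line 29 of the 32 lay above 0, with a median of 0.26. The 32 were picked on their Hey2 difference, and over all genes the 2 differences had a Pearson r of 0.41. The share over all genes picked in the same way is not given, so nothing is read from this count. As a measure of RNA integrity, the 3' control probe set exceeded the 5' one for Tfrc by 0.96 in induced and 0.67 in uninduced Hey2 cells, and by 0.84 in induced and 0.95 in uninduced Hey1 cells. For Pcx the excess was 1.56 in induced and 1.33 in uninduced Hey2 cells, and 1.43 in induced and 1.38 in uninduced Hey1 cells. For Actb it was 0.42 and 0.39 in induced and uninduced Hey2 cells, and 0.51 and 0.48 in induced and uninduced Hey1 cells. For Gapdh it was 0.032 and 0.012 in induced and uninduced Hey2 cells, and 0.042 and 0.040 in induced and uninduced Hey1 cells. The part of RNA quality in these differences was not tested.

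The genes higher in uninduced Hey2 cells were led by Zfp423, a partner of Smad and Ebf proteins, at 9.25 against 8.51 in uninduced Hey1 cells. Induced Hey2 and Hey1 cells read 9.28 and 8.32. Zfp36, which encodes the mRNA decay factor tristetraprolin, read 7.96 in uninduced Hey2 and 7.32 in uninduced Hey1 cells. Induced Hey2 and Hey1 cells read 7.85 and 7.43. In both genes the Hey2 arrays lay above the Hey1 arrays, and for Zfp36 the gap was 0.42 between the induced arrays and 0.65 between the uninduced ones.

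Chromosome 17 held 38 of the 280 Zfp genes and many of the larger differences, and it was singled out after the values were seen. Its Zfp genes had a median difference of 0.13 for the Hey1 line and 0.44 for the Hey2 line, and 28 (73.7%) and 34 (89.5%) of 38 lay above 0. Other genes of chromosome 17, 566 in all, had medians of -0.024 and -0.039. Of the 38, 26 lay above 0 in both lines and Zfp13 and Zfp213 below 0 in both. At 1.5-fold 5 of the 38 (13.2%) were higher in induced Hey1 cells, against 1.84% of all genes: Zfp119b, Zfp51, Zfp946, Zfp948 and Zfp959. In the Hey2 line 12 (31.6%) were, against 3.02% of all genes. Since the chromosome was picked for its values, nothing is read from these shares. The uninduced Hey2 array was the lowest of the 4 for 30 of the 38, and the median of these genes was 7.79 in induced Hey1, 7.54 in uninduced Hey1, 7.69 in induced Hey2 and 7.26 in uninduced Hey2 cells. Without chromosome 17, the other 242 Zfp genes had medians of 0.0061 and 0.059.

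**Figure D3:**
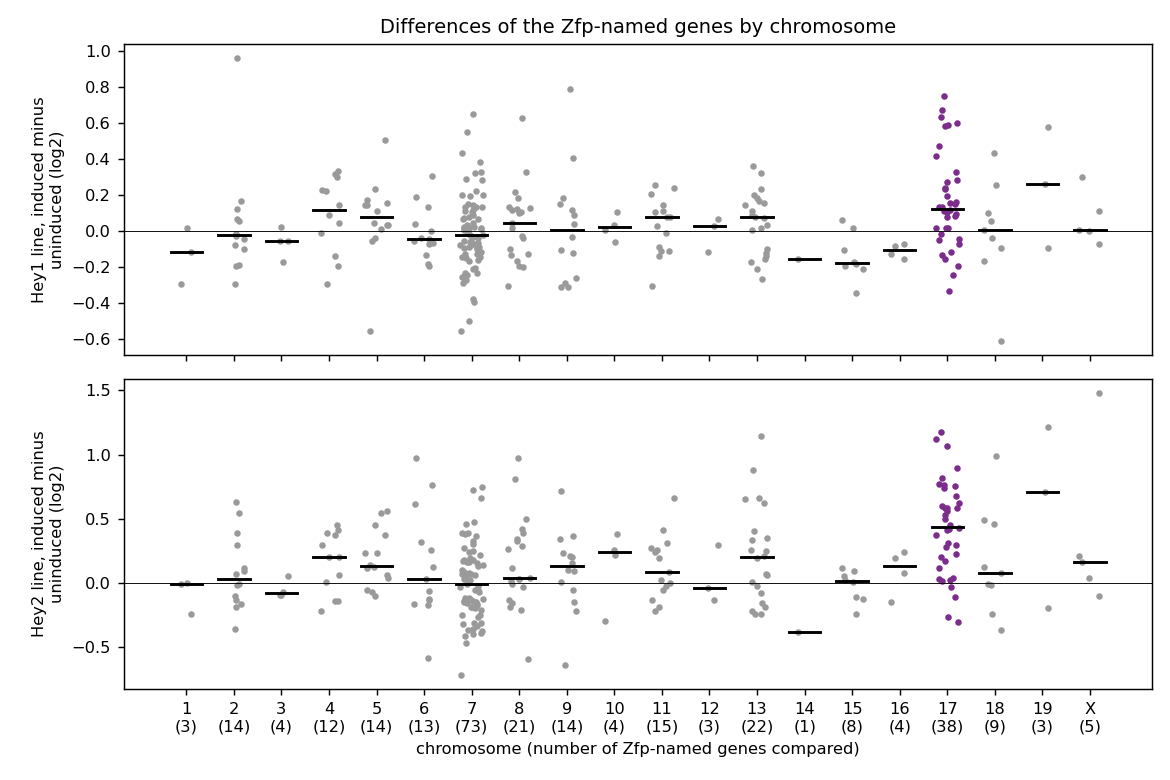
Log2 difference of induced minus uninduced array for each Zfp gene compared, by chromosome, with the Hey1 line above and the Hey2 line under it. Each point is 1 gene and each bar the median. Chromosome 17, in purple, has medians of 0.13 (Hey1 line) and 0.44 (Hey2 line).

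Chromosome 7 holds the most Zfp genes of this kind, 73, and its medians were -0.019 and -0.0070 for the Hey1 and Hey2 lines, close to those of all genes. Chromosome 13, with 22 Zfp genes, had 0.078 and 0.20, and chromosome 8, with 21, had 0.044 and 0.039. Zfp genes with a neighbour of the same kind, 143 of them, had medians of 0.044 and 0.11, and the 137 without one 0.0018 and 0.050. The genes of the chromosome 17 runs are among the 143, and no split without that chromosome was made. Neighbours and chromosome thus cannot be told apart in these medians. Along chromosome 17 the runs of adjacent Zfp genes differed from each other: Zfp54, Zfp51, Zfp53, Zfp52 and Zfp948 had medians of 0.13 and 0.76, the run of Zfp760, Zfp229, Zfp820, Zfp995, Zfp942 and Zfp943 had 0.28 and 0.83, and the run of Zfp871, Zfp811, Zfp799 and Zfp870 had 0.18 and 0.32. The run of Zfp472, Zfp952, Zfp763 and Zfp563 had 0.050 and 0.41. The run of Zfp944, Zfp758 and Zfp946 had 0.16 and 0.45, and that of Zfp955b, Zfp81 and Zfp101 had 0.020 and 0.28. The run of Zfp119a, Zfp959 and Zfp119b had 0.59 and 0.50, with the Hey1 line above the Hey2 line. On chromosome 7 the run of Zfp607b, Zfp59 and Zfp850 had 0.29 and 0.46, within the range of the chromosome 17 runs, while a run of 11 Zfp genes had 0.0058 and -0.13.

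**Figure D4:**
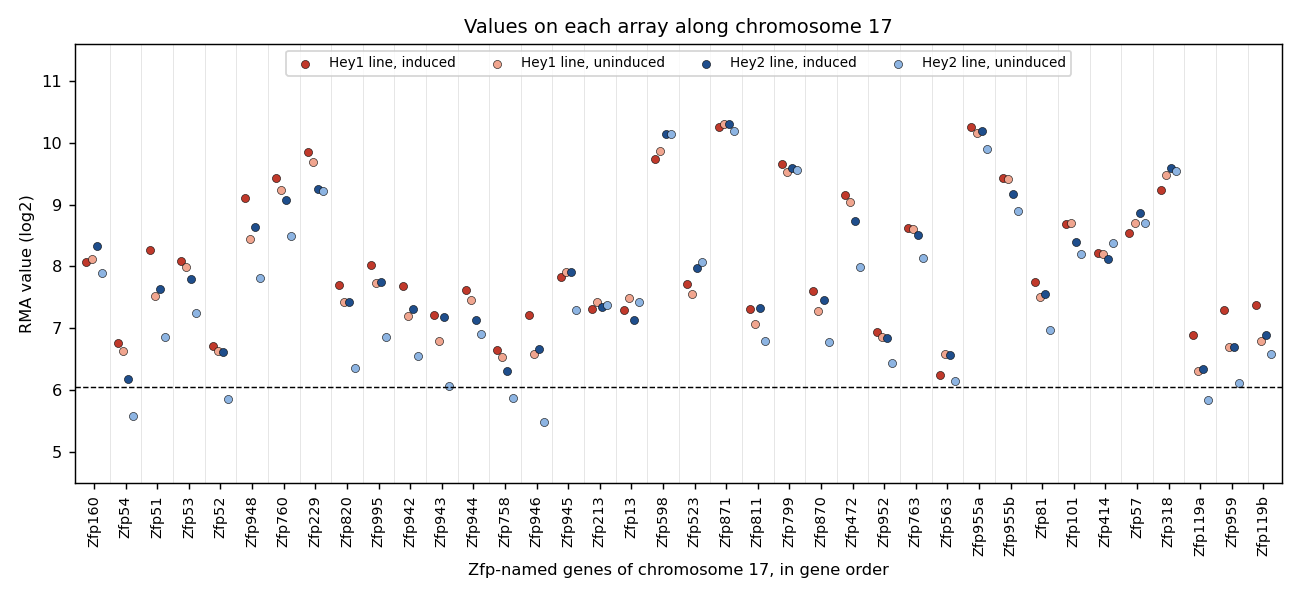
Log2 probe set value (RMA) on each of the 4 arrays for the 38 Zfp genes of chromosome 17, in gene order, 1 point per array, with the filter as a dashed line. The uninduced Hey2 array is the lowest of the 4 for 30 of the 38.

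**Figure D5:**
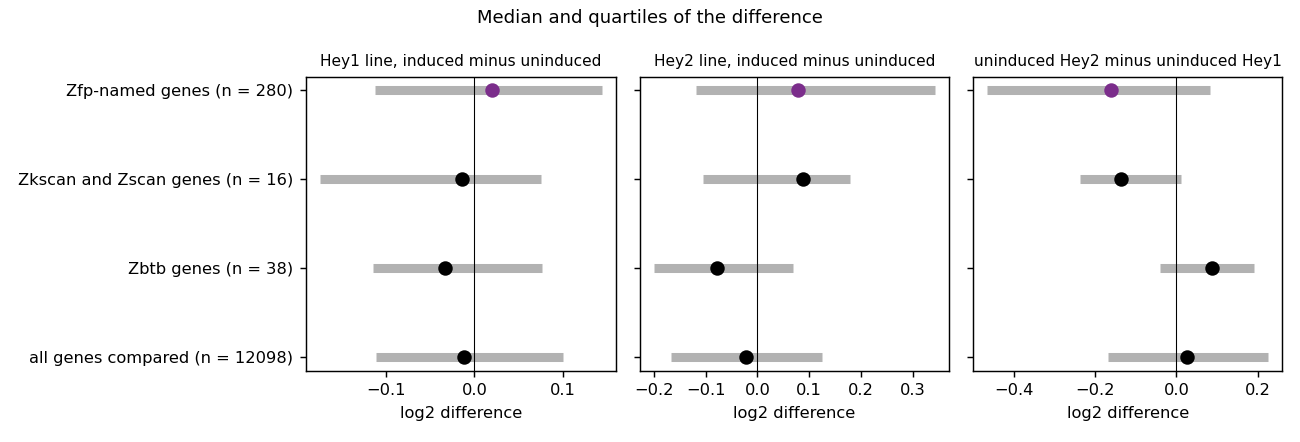
Median (point) and quartiles (bar) of the log2 difference over genes, for induced minus uninduced arrays of each line and for uninduced Hey2 minus uninduced Hey1 cells, in the Zfp genes, 2 other zinc finger families and all genes compared. In the last comparison the Zfp median is -0.16 and that of all genes 0.027.

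Other zinc finger families gave a comparison with the Zfp genes. The Zbtb genes, 38 genes whose fingers come with a BTB domain, had medians of -0.034 and -0.078 in the order Hey1 line, Hey2 line. The 16 Zkscan and Zscan genes, whose proteins carry a SCAN domain, had -0.015 and 0.088. For uninduced Hey2 minus uninduced Hey1 cells, the Zkscan and Zscan median was -0.14, with 11 of 16 below 0. The Zbtb median there was 0.088, and that of the Zfp genes -0.16. The partners of KRAB proteins, 21 of 23 listed genes measured, had medians of 0.0093 and 0.0010, with Atrx alone past 1.5-fold, in the Hey2 line. Trim28, the corepressor itself, read 13.57 in induced and 13.75 in uninduced Hey1 cells, and 13.82 in induced and 13.90 in uninduced Hey2 cells. Atrx, a chromatin remodeller of heterochromatin, read 11.26 in induced and 10.05 in uninduced Hey2 cells, and 11.02 and 10.58 in induced and uninduced Hey1 cells.

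The Zfp genes with a known role were also grouped by it, with medians given for the Hey1 line first and the Hey2 line after it. The imprint proteins Zfp57 and Zfp445 and Zfp568, a repressor of a placental Igf2 promoter, had medians of -0.12 and 0.17. The 4 retroelement-binding proteins had medians of -0.094 and 0.25, with 2 above and 2 below 0 in each line. Of these, Zfp708 was past 1.5-fold in the Hey2 line (0.65, at 6.31 in induced and, below the filter, 5.66 in uninduced cells). Zfp932 had 0.54, Zfp809 -0.22 and Zfp819 -0.053 there. Of 7 self-renewal regulators 5 were measured, with medians of -0.10 and 0.0080, and Zfp281, which represses Nanog, read 10.96 in induced and 10.97 in uninduced Hey2 cells. The 12 RNA and ribosome factors had medians of 0.00062 and 0.054, with Zfp638 past 1.5-fold in the Hey2 line. Zfp326, a member of a complex that links splicing and transcription elongation, had 0.51 and 0.37. The 17 signalling and chromatin cofactors that passed the filter had medians of -0.055 and -0.020, with Zfp518a and Zfp703 past 1.5-fold in the Hey2 line and Zfp521 in the Hey1 line.

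The 47 Zfp genes that did not reach the filter had medians of 0.095 and 0.16, and 3 (6.38%) and 2 (4.26%) of them were past 1.5-fold, all higher. Of all 6096 genes below the filter, 1.79% and 3.1% were past it in either direction, and 1.25% and 1.64% on the higher side. Just inside it were Zfp605 (highest value 6.06), Zfp521 (6.11) and Zfp935 (6.13), and just outside Zfp783 (6.05), Zfp40 (6.01) and Zfp474 (6.004). Of the 280 compared, 256 reached the filter on all 4 arrays and 5 on 1.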

How the data were processed

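Expression was measured on 4 single-colour arrays of murine embryonic stem cells, 1 per group. The deposited log2 values were made by the authors with RMA, per the submitters' processing notes. The sources used here give neither RMA's version nor the software or the array's genome build. The values were checked to be on a log2 scale from their range, 2.67 to 15.2. Only probe sets with a single gene symbol in the platform annotation were used (34958 of 45101), and 27 probe sets that name a Zfp gene with others were left out. Each gene was read by its probe set of highest mean, and a gene was compared if its highest value reached 6.05. Within each line the uninduced array was subtracted from the one labelled induced, with no test, since there is 1 array per group. Groups were taken from the titles. The genes, the lists and the chromosome split were chosen with earlier results of these data known. The named genes were the 8 with the largest difference in each direction per line, in each direction the 6 highest by the smaller of both lines' differences and the 6 that differed most between the uninduced arrays, the 4 whose lines differed most each way, those at the filter, the 6 of highest mean, and all list members. Other Zfp genes in the text, such as those with a motif or in a run, were chosen after their values were seen. Upstream windows of RefSeq (GRCm38.p6) were matched by symbol for 270 of 327 Zfp genes, and coordinates are given for these windows only. Proteins were not analysed here. Other settings tried were no filter, the 75th percentile of all values as filter, cyclic loess, centring, a linear offset of 32, the mean or the lowest passing probe set of a gene, and the uninduced array of the other line. Leaving out chromosome 17 or x_at and s_at probe sets was chosen after the data were seen. Python 3.11.15 with pandas 2.3.3, scipy 1.17.1 and biopython 1.88 was used, with limma 3.58.1 in R 4.3.3 for cyclic loess.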

Additional observations from a re-analysis of the deposited data

How the results depend on the processing

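With the uninduced array of the other line as the comparison, the median of the Zfp genes became 0.19 for the Hey1 line and -0.035 for the Hey2 line, 62.9% and 43.9% lay above 0 (45.3% and 46.6% of all genes), 56 and 7 genes (20% and 2.5%, with 6.55% and 4.79% over all genes) passed 1.5-fold on the higher side, 8 and 6 on the lower side (2.86% and 2.14%, against 5.63% and 2.83%), 22 and 2 at least 2-fold higher, 1 Hey2-line gene was lower by 2-fold or more, and 1 was higher in both. Zfp472, Zfp54, Zfp810 and Zfp820 turned to -0.32, -0.45, -0.063 and -0.0097 in the Hey2 line, and Zfp521 and Zfp869 to 0.047 and -0.024 in the Hey1 line. The cause was not tested. With 8.31, the 75th percentile, as the filter, which left 133 Zfp genes, 4 (Hey1) and 9 (Hey2) were at least 1.5-fold higher, 0 and 0 lower, 2 higher in both and 1 at least 2-fold higher in the Hey2 line, and between uninduced arrays 4 were higher and 17 lower. With an offset of 32 the counts were 4 (Hey1) and 19 (Hey2) higher, 0 and 0 lower, 2 in both, 1 at 2-fold, and 4 and 25 between uninduced arrays. With probe sets averaged per gene 2 were higher in both and 0 lower in each line, and with the lowest passing probe set 3 were lower in the Hey1 line. Without chromosome 17, 4 (Hey1) and 20 (Hey2) were higher (1.65% and 8.26%, against 1.84% and 3.02% of all genes). Then 1 was higher in both (0.413%, against 0.769%) and 3 at 2-fold in the Hey2 line (1.24%, against 0.686%). The other counts here have no share of all genes beside them wherever none is printed. They describe the change of setting only, and nothing is read from them. The main results, 17 in all, were medians, shares above 0 and counts past 1.5-fold or 2-fold. All 17 were classed as the same with no filter, cyclic loess, centring or leaving out x_at and s_at probe sets. That class describes a change of setting and no spread between samples. With cyclic loess the Zfp medians were 0.029 (Hey1 line) and 0.11 (Hey2 line). The signal near the filter limits small differences, since each gene has 1 value per group. No paired analysis was possible because each group has 1 array, and no array could be left out.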
